A study of Mus musculus with 6 samples.

Results

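The transcript starts described here lie on the strand with fewer distinct listed events, in genes for which assembled transcripts were listed on both strands. The tissue was the mouse nucleus accumbens, a ventral striatal region that takes part in reward. For each gene ID, the distinct events of the 6 catalogues were pooled, the strand with more distinct events was taken as the majority strand, and first exons on the other strand were kept. This gave 896 of the 42199 distinct starts in the series, in 636 of 15939 gene IDs, of which 629 are annotated as protein-coding. Events on both strands were listed for 1419 gene IDs. Of these, 144 had equal numbers and were dropped with their 309 starts, and 639 of the 1275 others had no start on the minority strand. The threshold was close for 127 of the 636 genes, whose strands differed by 1 event, while 482 had at least 2 times as many events on the majority strand.

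The 6 libraries were made from total RNA of nucleus accumbens tissue of C57BL/6N mice. The 3 morphine libraries (replicates 4, 5 and 6) came from mice given morphine injections in conditioned place preference, a task that pairs a drug with a place, and the 3 saline libraries (replicates 1, 2 and 3) from mice given saline injections in the same task. By the series' design, each group had 6 mice behind its 3 samples. How mice were pooled is not labelled, and p-values measure only the spread between these samples, which may be technical. All values are numbers of listed events and not expression levels, and the read depth is unknown.

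Opposite-strand transcription is common in mammalian genomes. Natural antisense transcripts run through a gene in the reverse direction, and divergent promoters start a coding and a non-coding RNA head to head from a shared CpG-rich stretch. Some such pairs are well studied: Airn is transcribed through the imprinted Igf2r gene and silences it on the same chromosome, and the long Snhg14 transcript silences the paternal Ube3a allele in neurons. The developmental transcription factors Six3, Dlx1, Lhx1, Nkx2-2 and Nr2f1 have long non-coding partners on the other strand.

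The catalogues were read on GRCm38, because 35444 of the 42199 starts (84.0%) had a splice site of an exon in the GENCODE M21 annotation of that build. The distinct starts per library numbered 21768, 21769 and 21237 in the morphine libraries and 21713, 21407 and 22698 in the saline libraries. All 10 medium spiny neuron markers checked (Drd1, Drd2 and Ppp1r1b among them) were listed in all 6 libraries, as were 3 of the 4 endothelial markers, with Cldn5 listed in none. The ependyma and choroid plexus markers had 17, 20 and 20 events in the morphine libraries and 23, 28 and 23 in the saline libraries. The groups did not overlap there, and the part of these cells in the results was not tested.

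The description as antisense did not hold for every start. By the annotation, 706 starts in 521 genes lay on the strand opposite to the gene, 185 starts in 112 genes lay on the gene's own annotated strand, and 5 starts in 3 gene IDs had no annotated gene. For the 112 genes the reverse side had the larger number of distinct events, and for 28 of them the lead was 1 event. Of the 706 antisense starts, 177 used a splice site of an annotated exon on that strand and 529 did not.

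Promoters are shown for a start on the gene's own strand (Six3), for a start listed in the morphine libraries alone (Igf2r) and for an annotated antisense start (1110020A21Rik, in the phosphatase gene Ppm1b, chosen after its values were seen). The sequences are from RefSeq on GRCm38.p6 and cover 250 bases before to 50 after the annotated start, 5′ to 3′, with each CG pair in capitals.
Six3 promoter, chr17:85620584-85620883, plus strand: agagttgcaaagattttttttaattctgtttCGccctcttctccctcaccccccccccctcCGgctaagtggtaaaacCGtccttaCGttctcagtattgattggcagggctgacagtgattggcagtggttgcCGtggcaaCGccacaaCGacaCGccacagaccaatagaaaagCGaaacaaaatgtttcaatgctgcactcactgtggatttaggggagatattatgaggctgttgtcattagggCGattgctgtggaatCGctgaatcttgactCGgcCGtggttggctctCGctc
Igf2r promoter, chr17:12769657-12769956, minus strand: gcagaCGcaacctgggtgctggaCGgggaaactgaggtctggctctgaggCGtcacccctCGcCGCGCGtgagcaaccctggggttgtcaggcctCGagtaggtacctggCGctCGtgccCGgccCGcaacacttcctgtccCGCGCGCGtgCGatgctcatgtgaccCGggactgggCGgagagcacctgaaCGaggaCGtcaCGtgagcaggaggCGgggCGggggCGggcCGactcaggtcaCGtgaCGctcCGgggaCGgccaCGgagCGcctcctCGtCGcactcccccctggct
1110020A21Rik promoter, chr17:84957374-84957673, minus strand: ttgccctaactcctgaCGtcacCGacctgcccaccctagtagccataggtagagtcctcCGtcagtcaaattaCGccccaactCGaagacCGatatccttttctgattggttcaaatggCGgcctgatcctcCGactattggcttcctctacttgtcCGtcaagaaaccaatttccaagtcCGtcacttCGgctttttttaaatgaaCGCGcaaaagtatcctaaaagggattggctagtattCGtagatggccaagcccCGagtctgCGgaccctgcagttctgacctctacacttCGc

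The Igf2r promoter held 34 CG pairs, the 1110020A21Rik promoter 17 and the Six3 promoter 14. Of the own-strand starts, 64 of 185 (34.6%) began inside a RefSeq promoter of the same strand, as did 40 of the 177 annotated antisense starts (22.6%) and 18 of the 529 unannotated ones (3.40%). The promoters reached held a median of 23.5, 14.5 and 13.5 CG pairs in these 3 classes, against 7 over all 32851 RefSeq promoters. The motif GGGCGG, searched on both strands, was in 65.5%, 47.2% and 55.0% of them, against 35.7% of all promoters. TATAAA, searched in the same way, was in 4 of 58, 2 of 36 and 2 of 20 of them, against 13.6% of all promoters.

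The junctions that end the first exons carry the strand of each transcript in their letters. The windows below hold the last 18 bases of the first exon and the first 12 of the intron on the transcribed strand, 5′ to 3′, with the donor dinucleotide in capitals. They were read from GENCODE M21 transcripts that overlap the site, and show own-strand, annotated antisense and unannotated antisense starts in that order. Those in Icam5, Hcn2, Htr2c, Kcnk3, Prkcb and Ahi1 were chosen after their values were seen. The name after the word in is the gene ID under which a start was listed. The Snhg14 site lay past the 3′ end of Ube3a.
Six3, own strand, 6 libraries, chr17:85613696-85613725, plus strand: tctcttacctttctgcagGTaagatcttcc
Nr2f1, own strand, 6 libraries, chr13:78198108-78198137, minus strand: tgggcatgaggcgggaagGTgaatatttct
Nr2f2, own strand, 6 libraries, chr7:70359876-70359905, minus strand: tgggcatgagacgggaagGTatcggcctct
Gm26881 in Fam214b, 6 libraries, chr4:43046226-43046255, plus strand: cggcttctgtgatgacagGTccagaagggc
Gm9899 in Kcnk3, 5 libraries, chr5:30588359-30588388, minus strand: cgcggcgcccaccagcagGTaggtgaaggt
Tspan32os in Tspan32, 3 libraries, chr7:143007751-143007780, minus strand: ccccccagtctctcacagGTagagtttggg
Snhg14 in Ube3a, 1 library, chr7:59317847-59317876, minus strand: ttctgtctctggattttgGTaagtctgatt
unannotated in Icam5, 5 libraries, chr9:21036364-21036393, minus strand: gttgatggcttcgcatcgGTaagtgccggc
unannotated in Hcn2, 5 libraries, chr10:79716804-79716833, minus strand: ctcgtccgccgactccggGTgcgagggggt
unannotated in Htr2c, 4 libraries, chrX:146962836-146962865, minus strand: cctgcgccccccggaaagGTttggctggaa
unannotated in Prkcb, 1 library, chr7:122628392-122628421, minus strand: ggaaacttgtctaaaagcGCattcccccca
unannotated in Ahi1, 2 libraries, chr10:21079484-21079513, minus strand: aagcagagcatctgcatcATggccacaagt

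A donor could be read for 397 of the 896 starts. It was GT, the usual donor, in 344, GC in 35 and AT in 17. None read CT, the letters that a spliced GT to AG intron of the gene itself would give on the reverse strand. Letters were readable only where an annotated exon covers them, which need not hold at the edges of the gene's own introns. The absence of CT thus decides nothing, and all shares hold for readable sites alone. All 48 readable own-strand donors were GT, as were 92 of the 94 annotated antisense donors. Of the 255 readable unannotated antisense donors, 204 (80.0%) were GT, 33 (12.9%) GC and 17 (6.67%) AT. Unannotated starts of genes with events on a single strand had 87.6% GT, 8.09% GC and 2.09% AT, and their annotated starts 98.2% GT. Unannotated antisense starts listed in 2 or more libraries had GT in 40 of 46 cases (87.0%), against 164 of 209 (78.5%) for those listed in 1 library. These letters are not independent of the strand, since an assembler can assign the strand of a spliced transcript from them, and the assembler is not given in the sources used here.

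Some windows were the same at different places in the genome, which marks copied sequence. Of 368 windows read, 16 in 12 genes, 6 sequences in all, occurred in different genes at different places. Another 4 windows were 2 places listed under a pair of gene IDs each (Abi2 with Cyp20a1, and Gm14393 with Gm14399, chosen after their values were seen). The zinc finger genes Zfp758, Zfp943 and Zfp994 on chromosome 17 shared all 30 bases, and the trophinin gene Tro had a pair of sites that share the bases around the donor. Reads from such copies can be placed on either copy, so these starts are uncertain.
Zfp758, 4 libraries, chr17:22375817-22375846, minus strand: attcactacatttgtaagGTttctctcctg
Zfp943, 1 library, chr17:21993130-21993159, minus strand: attcactacatttgtaagGTttctctcctg
Zfp994, 5 libraries, chr17:22200145-22200174, plus strand: attcactacatttgtaagGTttctctcctg
Tro, first site, 5 libraries, chrX:150648473-150648502, plus strand: tactactattaatgctggGTgcaccaccaa
Tro, second site, 5 libraries, chrX:150648524-150648553, plus strand: agctggtgctagtgctggGTgcaccaccaa

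On the gene's own strand, the minority starts mostly used annotated splice sites. Their splice site was that of an annotated exon on that strand, first or internal, in 144 of 185 cases. The median first exon over all listings was 326.5 bases. Of the 30 minority-strand starts listed in all 6 libraries, 25 belonged here, in 17 of 20 genes. On the majority side, 57 of the 112 genes had events on splice sites of another annotated gene (an antisense RNA in 29, a processed transcript in 12, a lincRNA in 7), and 55 did not.

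Six3, a homeobox transcription factor of the forebrain, had 2, 3 and 3 own-strand starts in the morphine libraries and 3, 2 and 2 in the saline libraries. Its majority side held 13 distinct events, all on splice sites of the long non-coding RNA Six3os1, with no start listed. Nr2f1 and Nr2f2, the orphan nuclear receptors COUP-TFI and COUP-TFII, also had annotated non-coding genes on the majority side, but with 2 reverse-strand starts listed, for Nr2f1 in saline 2 and for Nr2f2 in saline 3. Nr2f1 had 3, 2 and 2 starts in the morphine libraries and 2 in each saline library, against 7 majority-side events of which 6 lay on A830082K12Rik. Nr2f2 had 2 in each morphine library and 2, 3 and 2 in the saline libraries, against 10 majority-side events of which 5 lay on B130024G19Rik. The counts of these 3 genes overlapped between the groups.

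Other own-strand genes had reverse sides that match no annotated gene. Arf3, a small GTPase of vesicle traffic, and Lrrtm3, a synaptic adhesion protein, each had 2 own-strand starts in every library. The reverse sides held 9 and 6 events with no start. Map1b, a microtubule-binding protein of axons, had 1 start in every library, and Gpm6a, a neuronal membrane glycoprotein, and Ubb, a polyubiquitin gene, had 2 in every library. None of the 4 reverse-side events of Gpm6a or the 10 of Ubb used annotated sites of another gene. Urgcp differed in that its reverse side was annotated: it had 2 own-strand starts in every library, and 29 of its 31 reverse-side events lay on the pseudogene Ube2d-ps.

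Ache, which encodes the enzyme that breaks down acetylcholine, had 4, 2 and 2 own-strand starts in the morphine libraries and 3, 1 and 1 in the saline libraries. Of its 10 reverse-side events, 7 lay on the lincRNA Gm42456. Ctxn2, a small neuronal membrane protein, had 2, 3 and 2 against 3, 2 and 3, beside 23 reverse-side events of which 19 lay on Gm14004. Sybu, which links cargo to kinesin in axons, had 2, 4 and 3 against 2, 3 and 4, beside 30 reverse-side events of which 24 lay on the pseudogene A930017M01Rik. In these 3 genes the groups overlapped. Adcy5, the main adenylyl cyclase of striatal neurons, had its single own-strand start in morphine 4 and 5 and in saline 2 and 3. Nkx2-2, a transcription factor of ventral progenitors and the oligodendrocyte lineage, had its own start in morphine 6 alone, beside 8 events on the reverse strand, 2 of them on Nkx2-2os.

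Annotated antisense starts gathered at the 5′ end of the genes they oppose. The 177 starts lay in 146 genes and used splice sites of antisense RNAs in 104 cases, of processed transcripts in 35, of lincRNAs in 15 and of protein-coding genes in 7. Of the 127 inside the gene, 74 (58.3%) were in the first 10% of its length, and 58 lay within 1000 bases of the gene's own start. Another 50 lay past the 3′ end, at a median distance of 5005 bases.

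Fam214b was the only gene with annotated antisense starts in all 6 libraries: both starts of Gm26881 were listed in each, at 119 bases inside Fam214b's own start. Fam214b itself had 6, 3 and 6 starts in the morphine libraries and 6, 6 and 5 in the saline libraries, so both strands were listed together there. Listed in 5 libraries were starts of Gm9899 in the potassium channel gene Kcnk3, of Gm11696 in the G protein gene Gna13 and of Gm16083 in the complement regulator gene Cd55, at 347, 397 and 161 bases inside the gene. These genes were chosen after their values were seen. The Gm26592 start in the neuronal adhesion gene Icam5 lay deeper, at 68.8% of the gene's length. A pair of Gm15417 starts in Zbtb7b, listed in 5 libraries, lay 2698 bases inside, at 15.7% of the gene's length. Zbtb7b was also chosen after its values were seen.

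Among developmental transcription factors, minority starts were each listed in a single library, and the annotated partner had one only at Dlx1. Dlx1as, opposite the interneuron factor Dlx1, had a start in morphine 4 alone, and Dlx1 had 0, 2 and 2 starts in the morphine libraries and 2 in each saline library. Lhx1, a homeobox factor, had an unannotated start in saline 3 alone, and 1 of its 2 minority events, not the start, used a site of Lhx1os. Pou3f3, a POU-domain factor of neurons, had 0 minority starts in each morphine library and 2, 0 and 0 in the saline libraries. Both starts were unannotated, and 1 of its 4 minority events, not a start, lay on Pantr1. Sox2, a stem cell factor, had an unannotated minority start in morphine 5 alone, and all 7 events of its majority strand used splice sites of Sox2ot, which runs through Sox2 on the same strand.

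Ube3a, a ubiquitin ligase, had 9 minority starts and 25 minority events, of which 2 events used Snhg14 sites. Listed starts numbered 0, 4 and 2 in the morphine libraries and 0, 4 and 5 in the saline libraries. Each group thus had a library with none, and Ube3a's own strand had 4 to 6 starts in every library. The log2 ratio was -0.38 with a standard error of 1.39 (limma, adjusted p = 1). Kcnq1, a potassium channel gene in an imprinted cluster, had 0, 1 and 0 minority starts in the morphine libraries and 0, 0 and 1 in the saline libraries. Neither splice site was annotated, and the first exon of the saline start began inside the RefSeq promoter of Kcnq1ot1, the long antisense RNA of the cluster.

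Unannotated antisense starts were the largest class and the least repeated. They numbered 529 in 397 genes, 453 of them (85.6%) were listed in 1 library and 3 (0.567%) in all 6. For the annotated antisense starts these shares were 67.8% and 1.13%, for own-strand starts 43.2% and 13.5%, for the 1780 majority-strand starts of the same genes 53.3% and 3.93%, and for all starts of the series 42.7% and 29.8%.

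**Figure D1:**
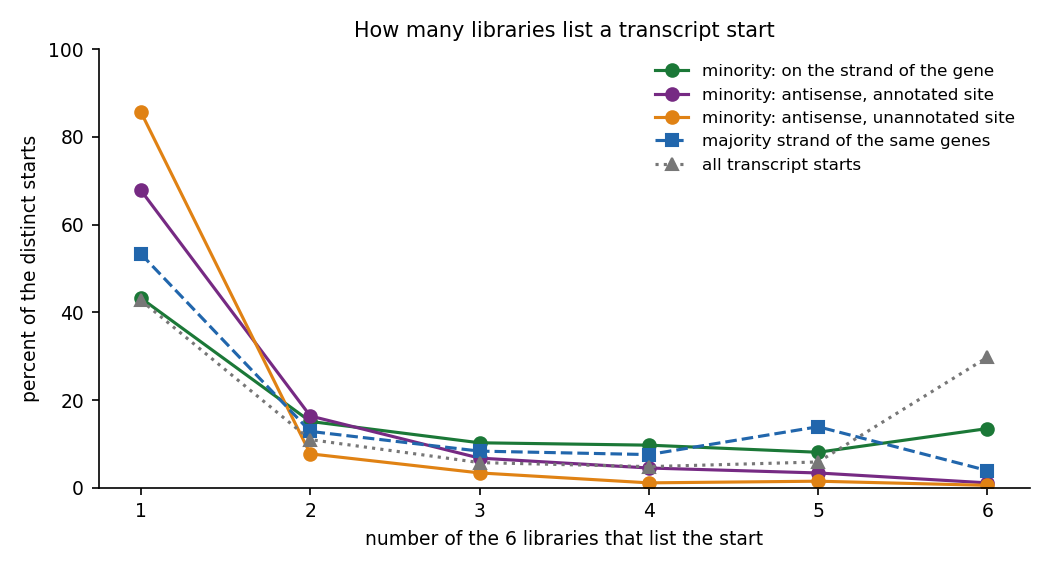
Share of distinct starts (vertical axis, percent) by the number of the 6 libraries that list them (horizontal axis). Lines with filled circles are the 3 classes of minority-strand starts, squares the majority strand of the same genes, triangles all starts; the unannotated antisense line begins at 85.6% in 1 library and ends at 0.567% in all 6.

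Of the 529, 408 lay inside the gene, 111 past its 3′ end and 10 before its 5′ end. Inside the gene, 89 (21.8%) lay in the first 10% of its length and 111 (27.2%) in the last 10%, and each 10% between held 17 to 34. A first exon overlapping an exon of the gene itself was seen for 255 of the 408, and 153 were intronic. The starts past the 3′ end were at a median of 12895 and up to 348395 bases from it, so the gene ID of such a start need not be the gene it overlaps.

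**Figure D2:**
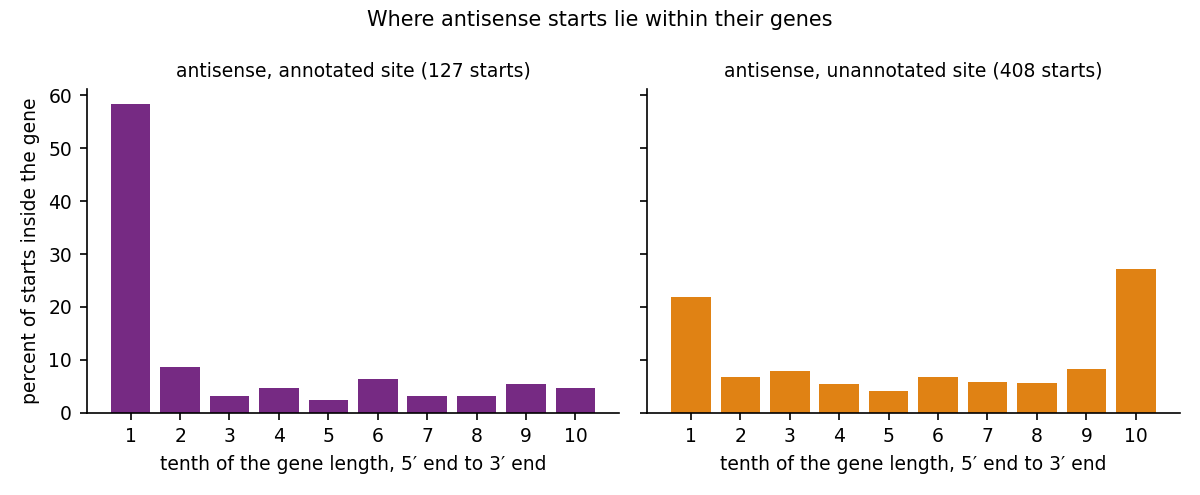
Antisense starts inside their genes by position in steps of 10% of the gene's length, from its own 5′ end at the left to its 3′ end at the right, as percent of the starts of the class (vertical axis). The first step holds 58.3% of the 127 annotated starts, while the 408 unannotated starts have 21.8% in the first and 27.2% in the last.

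The lengths of the unannotated antisense first exons had a sharp peak. Their median over 671 listings was 149 bases, and exactly 149 bases was the commonest length, in 54 listings (8.05%), against 482 of the 129136 listings off the minority strands (0.373%). The annotated antisense starts had the same median of 149 bases, with 6 of 288 listings (2.08%) at exactly that length, and the majority strand of the same genes had 1.46%. The peak was in every library: 8.16%, 9.43% and 5.94% in the morphine libraries and 5.61%, 8.85% and 9.59% in the saline libraries. The 54 listings were 45 distinct starts in 44 genes, 33 of them listed in 1 library.

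**Figure D3:**
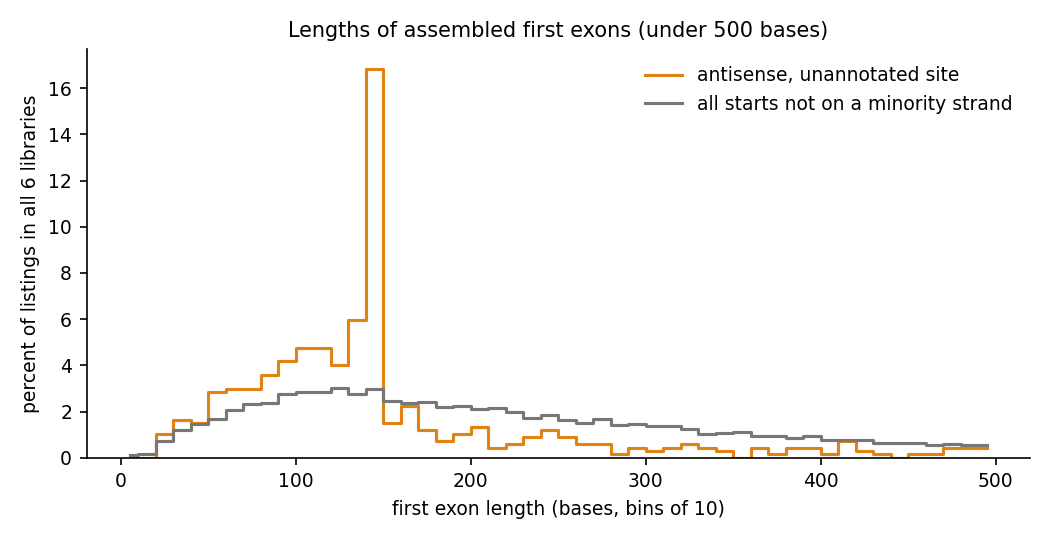
Lengths of assembled first exons under 500 bases in bins of 10 bases (horizontal axis), as percent of all listings of each set over the 6 libraries (vertical axis). The bin from 140 to 149 bases holds 16.8% of the unannotated antisense listings, and their curve drops to 1.49% in the next bin.

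Antisense starts listed in 5 or 6 libraries numbered 19, in 14 genes, 8 annotated and 11 not. The genes named from them in this paragraph were chosen after their values were seen, apart from Ermard, Idua and Sfi1. Of the 19, 14 lay inside the gene, 12 of these over one of its exons, and 14 had a first exon under 200 bases. Hcn2, a hyperpolarisation-activated channel gene, had an antisense start 330 bases inside its start in all 3 morphine libraries and in saline 1 and 2. Icam5 had both an annotated and an unannotated one in the same 5 libraries, all but morphine 6. Tro had a pair of starts at 75.3% of its length, with first exons of 149 and 200 bases.

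The 2 genes with unannotated antisense starts in all 6 libraries had them outside the gene body. Ermard, named for a role in RNA degradation at the endoplasmic reticulum, had a pair of starts at -47998 bases from its own start, outside the gene. The 5′ ends of this pair ranged from 14992872 to 14993210 on chromosome 17. The upper end lay inside the RefSeq promoter of Gm3255 on the same strand (chr17:14993128-14993427). Ermard's minority starts numbered 5, 4 and 2 in the morphine libraries and 2, 3 and 4 in the saline libraries. The majority strand under this ID had 34 of its 62 events on the neighbouring gene 9030025P20Rik. Idua, the lysosomal alpha-L-iduronidase, had a start 9618 bases past its 3′ end, with 1, 2 and 1 minority starts in the morphine libraries and 1 in each saline library. Sfi1, a centrosome protein gene, had 2, 3 and 5 against 4, 2 and 0, and 61 of its 72 minority events lay on the pseudogene Pisd-ps1.

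Within a library, minority-strand starts differed from majority-strand starts pooled over the same set of genes in 3 measures. The strand was chosen by distinct events pooled over the 6 libraries. The measures, above all listing in another library, need not be independent of that choice. The comparison was not matched by gene. Of 1145 pairs of a gene and a library with a minority-strand start, only 123 also listed a majority-strand start. Minority-strand starts used an annotated splice site in 49.4 ± 3.17% of cases against 81.0 ± 2.30% (SD, n = 6 libraries). Their median first exon was 194 ± 41.2 bases against 292 ± 17.5 bases. They were also listed in another library in 55.2 ± 4.51% of cases against 76.6 ± 2.34%. Each was lower on the minority strand in 6 of 6 libraries (exact two-sided sign-flip permutation test, p = 0.0312, the smallest that 6 libraries allow, and the same after adjustment over the 3). The same start can be listed in several libraries, so the 6 differences are not fully independent. The lowest annotated share was in saline 3 (43.2%), the library with the most minority starts; the other 5 were at 49.5% to 51.9%.

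Starts on both strands of a gene were seldom listed in the same library. Among 1145 pairs of a gene and a library with a minority-strand start, a majority-strand start was also listed in 123 (10.7%, and 7.69% to 13.3% per library) and a majority-strand end in 43.5%. On the minority strand 57.2% to 60.2% of genes with a start also had an end listed on that strand, on the majority strand 78.3% to 89.3%, and in genes with events on a single strand all had. Where a minority-strand start was listed, the catalogue thus mostly gave starts for 1 strand of the gene, and an unlisted start does not show that the transcript was absent.

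Between the groups, the number of minority-strand starts did not differ beyond the spread of the samples. The morphine libraries listed 225, 241 and 218 (228 ± 11.8, SD, n = 3) and the saline libraries 232, 260 and 280 (257 ± 24.1). The groups overlapped, with an exact two-sided permutation p of 0.2 (0.35 adjusted over 7 comparisons; the smallest p for 3 against 3 is 0.1). As a share of all starts these were 1.03%, 1.11% and 1.03% in the morphine libraries and 1.07%, 1.21% and 1.23% in the saline libraries (exact permutation p = 0.2). Without saline 3 the difference of -29.3 starts shrank to -18.

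By class, own-strand starts numbered 82, 82 and 84 in the morphine libraries and 82, 86 and 74 in the saline libraries (exact permutation p = 0.9). Annotated antisense starts numbered 45, 52 and 33 against 43, 57 and 58 (exact permutation p = 0.3). Unannotated antisense starts numbered 98, 106 and 101 against 107, 113 and 146, and there every morphine library lay below every saline library. The exact permutation p was 0.1, and 0.35 after adjustment over the 7. The gap between the groups was that between 106 and 107. Without saline 3 the mean difference of -20.3 was -8.33, and without Gm11168 it was -15.7 with an exact permutation p of 0.2.

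**Figure D4:**
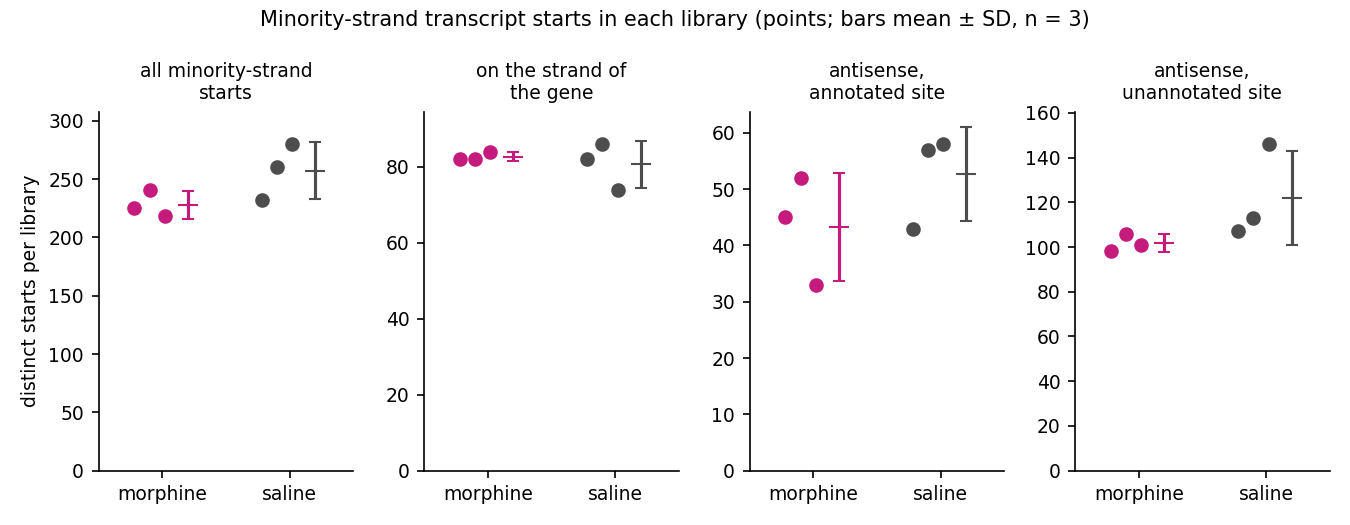
Distinct minority-strand starts per library (vertical axis, from 0), for all of them and for the 3 classes; each point is a library, morphine at the left and saline at the right, with the mean and SD (n = 3) beside the points. The groups do not overlap for unannotated antisense starts, where saline 3 is highest at 146.

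Starts listed in all libraries of a group and in none of the other were few. Morphine had 3 of the 896 (0.335%), against 0.273% of all starts, and saline had 6 (0.67%), against 0.377%. In bulk tissue, fewer cells of a type and less RNA per cell cannot be told apart.

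The 3 morphine starts were all on the gene's own strand, and in each of these genes the saline libraries listed starts of the reverse strand. Igf2r, the receptor that takes insulin-like growth factor 2 and mannose 6-phosphate proteins to lysosomes, had its annotated first exon (chr17:12769400-12769664) and a last exon in morphine 4, 5 and 6 and in no saline library. A start and an end on Airn sites were listed in saline 1, 2 and 3 and in no morphine library. Poldip3, which acts in messenger RNA export and translation, had its own start (chr15:83149195-83149331) in the 3 morphine libraries, and 2 reverse-strand starts in each saline library. A reverse-strand end of Poldip3 was listed in all 3 morphine libraries too, and in saline 1 and 2. Fam78b had 1, 2 and 1 own-strand starts in the morphine libraries, while each saline library had 1 start on the reverse strand and none on its own. Its own-strand end was listed in all 3 morphine libraries and in saline 1 and 2. For Poldip3 and Fam78b the listed ends thus did not follow the strand of the listed starts in every library, as they did for Igf2r.

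The 6 saline starts were all antisense by the annotation. Zeb2, a zinc finger repressor of neuronal development, had both of its Zeb2os starts in each saline library and in no morphine library. Its own strand had 5, 1 and 1 starts in the morphine libraries and 4, 10 and 4 in the saline libraries. Tspan32, a tetraspanin of blood cells, had a Tspan32os start in each saline library, an end on that strand in morphine 4 and in saline 1 and 3, and its own starts were listed in morphine 4 and 5 alone. Acsl3, an acyl-CoA synthetase, had an unannotated start in each saline library and another in morphine 5, with its own start in morphine 4 and 6. Gm14434, a predicted zinc finger gene in a cluster of near copies on chromosome 2, had its reverse start in the saline libraries and 2, 1 and 2 own starts in the morphine libraries. Gm11168, which lies in repeated sequence at the end of chromosome 9, had 0, 0 and 6 minority starts in the morphine libraries and 7, 3 and 10 in the saline libraries. It had more minority starts than any other gene (16), and both of these predicted genes share windows with other genes, so their values are uncertain.

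**Figure D5:**
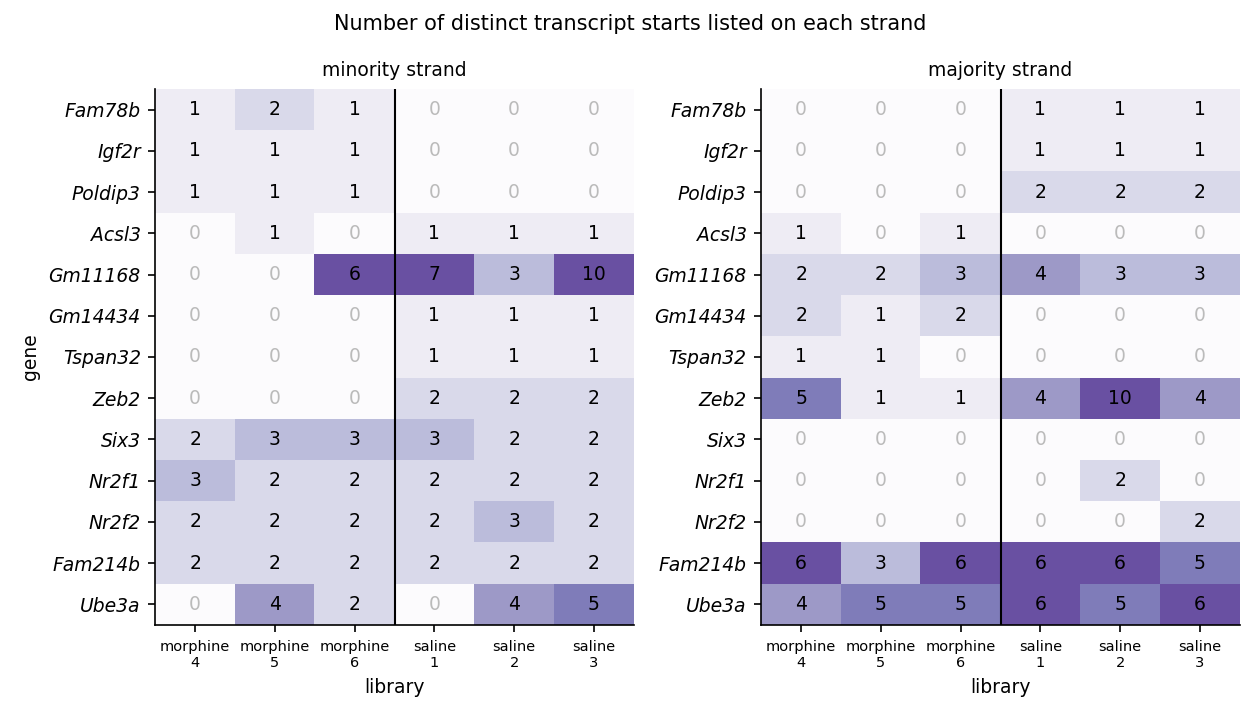
Number of distinct starts listed on the minority strand (left) and the majority strand (right) in each library, for the 8 genes with a start listed in all libraries of a group and none of the other and for 5 further genes (rows); columns are morphine 4, 5 and 6 and saline 1, 2 and 3. In Igf2r, Poldip3 and Fam78b the strand with listed starts changes with the group, while Six3 has no majority-strand start in any library.

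Starts per gene and strand were also fitted with limma over all 14584 gene strands with a mean of at least 0.5. Of the 636 minority strands, 145 passed that filter. With Benjamini-Hochberg adjusted p below 0.05, 4 minority strands were higher in morphine (0.274% of all gene strands tested were) and 6 were lower (0.569%). The groups did not overlap for 5 higher (0.542% of all) and 7 lower (0.946%). A minority strand with starts in a single group passes the filter only through that group, so these shares are not support for a difference. In 9 of the 10 called strands every library of a group had the same count, so that the variance came from the fit and not from these samples. The median log2 ratio was 0 over the 145 and 0 over all strands tested.

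The 4 higher strands were those of Igf2r, Poldip3, Acot3 and Prkcb, each with 1 start in each morphine library and 0 in each saline library (log2 ratio 1.58 on the scale of starts plus 0.5, standard error 0.14, limma adjusted p = 0.0212). The lower ones were Zeb2, with 0 starts in each morphine library and 2 in each saline library (-2.32, limma adjusted p = 8.06e-10), and Ahi1, Gm14434, Tspan32, Uxt and Gm21738. Fam78b was not called (1.83, limma adjusted p = 0.112). Acot3, Prkcb, Ahi1, Uxt and Gm21738 were chosen after their values were seen. A donor window of Gm21738 was close in sequence to a shared window of Gm11168, so its call is uncertain. In Prkcb, the gene of the beta isoform of protein kinase C, the antisense start was a different one in each morphine library. In Ahi1, a ciliary gene linked to Joubert syndrome in people, a start was shared by saline 1 and 2 and saline 3 had another. With library totals scaled to be equal limma called 1 minority strand, and with a minimum mean of 1 start it called 1 among the 51 tested.

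Among genes with known antisense partners, 12 of the 46 in the catalogues had a minority-strand start (26.1%), against 636 of all 15939 (3.99%). Among them were Dlx1, Igf2r, Kcnq1, Lhx1, Mbp, Nkx2-2, Pou3f3, Six3, Sox2, Ube3a and Zeb2. The list holds genes known to have transcripts on both strands, so a high share could be foreseen. It does not show that the known partners were listed. At Igf2r, Six3 and Nkx2-2 the minority-strand start was the gene's own. Of the medium spiny neuron genes 3 of 19 had one (15.8%): Adcy5, Six3 and Pde10a, a striatal phosphodiesterase with an unannotated start in morphine 4 alone. The myelin gene Mbp had 1, 0 and 0 in the morphine libraries and 0, 1 and 1 in the saline libraries. None of the 8 opioid genes, 10 dopamine genes or 16 immediate early genes in the catalogues had a minority-strand start.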

How the data were processed

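Each deposited file is a catalogue of transcription and splicing events in transcripts assembled by the authors from a library, per the file headers, with an event type, Ensembl gene ID, chromosome, start, end, splice pattern and strand. The column headed fpkm in the deposited files holds whole numbers at or below 0, so it was treated as a score of unknown meaning and not used. Which assembler and event caller were used, and on which genome build and at what depth, is not given in the sources used here. No tool for counting reads was applied, and no interval was computed. The planned limma fit was applied to numbers of starts.

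First-exon events were pooled over the 6 libraries and were the same when gene ID, chromosome, splice position and strand were the same. A splice site was annotated when it matched an exon of GENCODE M21 on that strand. Starts per library were compared with exact two-sided permutation tests, strands within libraries with exact sign-flip tests, and starts per gene and strand with limma 3.58.1 in R 4.3.3 (log2 of starts plus 0.5, minimum mean 0.5, mean-variance trend, Benjamini-Hochberg adjustment), tested on simulated data. Tables were made with Python 3.11.15 and pandas 2.3.3.

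Named were up to 15 genes with a minority start in all 6 libraries, every start listed in all libraries of a group and none of the other, the 5 genes with the most minority starts, members of 5 lists (antisense partners, opioid, dopamine, immediate early, medium spiny neuron) and annotated partners on the other strand. Members, lists and rules were chosen with earlier results of these data known. Alternatives changed the definition of the majority strand, the gene set, the limma settings and the libraries used. A gene that the rule names is not reported here.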

Additional observations from a re-analysis of the deposited data

How the results depend on the processing

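The strand differences in length and in listing elsewhere kept their direction and an exact permutation p of 0.0312 with the annotated strand as main strand, with genes of at least 2 times as many main-strand events, without annotated neighbours and on autosomes alone (-168 to -67.1 bases, -31.1 to -21.3 points). The annotated-site difference was -36.1 with the margin and -31.2 on autosomes; the other settings lower that share by construction. The group difference of -29.3 starts was -61.7 with the annotated strand (exact permutation p = 0.1, groups apart), -11.3 with the margin (p = 0.6), -20.3 without neighbours and -21.7 on autosomes. It cannot pass 0.05 under any setting. With the 2 times margin, 5 starts in place of 9 were listed in all libraries of a group and none of the other. Leaving out each library in turn, with members as chosen from all 6, that number was 16 to 21, because 2 libraries of a group then suffice. In the same fits the group difference was -42 to -18 starts (-0.168 to -0.0858 points of all starts). The differences between strands were -32 to -31.2 points annotated, -108 to -91.1 bases and -22.8 to -20.7 points listed elsewhere. Their exact permutation p was then 0.0625, the smallest 5 libraries allow. Limma called 6 to 11 minority strands without a library, against 10, while its calls over all gene strands numbered 201 to 264, against 123. It called 1 with equal totals or with a minimum mean of 1, with 52 and 65 over all. Among alternatives chosen after seeing the data, the unannotated antisense difference was -27.8 to -8.33 without a library and -5 with the margin. The own-strand difference of 2 starts was -1.33 to 4.67 without a library, reversed without saline 3; the cause was not tested. No paired analysis was possible because the groups share no replicate numbers. Depth is unknown, so an unlisted start may be an unassembled one.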
